A study of Rattus norvegicus with 7 samples.

Results

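The mitogen-activated protein (MAP) kinase cascade and the dual-specificity phosphatases of rat testis were described on 88 probe sets for 63 genes, out of 31042 probe sets that are not array controls. The members are the probe sets whose single gene symbol in the platform annotation begins with Mapk, Map2k, Map3k, Map4k or Dusp followed by a digit or letter. Dusp1 was left out by the rule (2 probe sets), and 2 further probe sets that name both Mapk8 and Mapk10 were left out because they name more than 1 gene. The rule reads the symbol and no measured value. The rule also takes in genes whose symbols share the prefix while their products lie beside the cascade, such as Mapkap1, a subunit of the mTOR complex 2, and Map2k3os, a transcript from the strand opposite Map2k3. Mapk3, Map2k4, Map2k7, Map3k5 and Dusp16, and Mapk10 on its own, were not analysed here.

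Whole testes of adult Sprague-Dawley rats were profiled on an Affymetrix rat expression array. The groups were untreated rats taken at 0 h (n = 3), rats taken 8 h after a single intraperitoneal injection of cadmium chloride at 3 mg/kg body weight (n = 2), and rats taken 20 h after the same injection (n = 2). The labels call the replicates biological and name no animals or pools, and each of the 7 arrays was taken as 1 sample. A testis holds germ cells, Sertoli, Leydig, peritubular, vascular and immune cells together, and in such bulk tissue fewer cells of a type and less RNA per cell cannot be told apart.

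In a MAP kinase cascade, MAP4K enzymes can activate MAP3K enzymes, which activate MAP2K enzymes. The MAP2K enzymes phosphorylate a MAP kinase on a threonine and a tyrosine. Growth factors act mainly through the ERK arm, while stress, cytokines and metals act mainly through the p38 and JNK arms, and dual-specificity phosphatases remove both phosphates and end the signal. In the testis, p38, JNK and ERK signalling has been linked to the opening of the blood-testis barrier formed by Sertoli cells. Most of this control is by phosphorylation, which an RNA array does not measure. Several phosphatase genes are themselves switched on by the kinases they inhibit, so their RNA is often read as a record of pathway output.

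Promoter sequence was read for members whose windows hold motifs that stress kinases or metals are known to act through. RefSeq windows on the rat build GRCr8, from 250 bases before to 50 bases from the annotated start site on, matched 55 member genes with 57 windows. Both strands were searched for the core of the metal response element (TGCACNC or TGCGCNC), the site of the zinc sensor Mtf1, for the AP-1 site TGACTCA, for the cyclic AMP response element TGACGTCA, and for the serum response element, whose pattern is given here by name. The first of these stood in 20 of the 57 windows (35.1%), against 24.2% of 33469 windows of all genes and 27.6% of 21842 windows of protein-coding genes. The AP-1 site, the cyclic AMP response element and the serum response element each stood in 2 member windows (3.51%), against 4.63%, 1.83% and 1.64% of all windows. Capitals below mark the matches: a tandem pair of serum response elements in Dusp5, which begin at bases -82 and -72 from the start site, 3 metal response element cores in Map2k6, and 1 in Dusp13b. These 3 were chosen after the values were seen, as examples of members with a match whose same-day differences kept 1 direction on all 4 cadmium arrays. Dusp11, Dusp22, Mapk6 and Map3k19, and Mapk8, Map3k3 and Map4k5 on at least 1 probe set, also have both. The windows lie at chr1:262543524-262543823, chr10:95872497-95872796 and chr15:2616511-2616810, all on the plus strand.
Dusp5: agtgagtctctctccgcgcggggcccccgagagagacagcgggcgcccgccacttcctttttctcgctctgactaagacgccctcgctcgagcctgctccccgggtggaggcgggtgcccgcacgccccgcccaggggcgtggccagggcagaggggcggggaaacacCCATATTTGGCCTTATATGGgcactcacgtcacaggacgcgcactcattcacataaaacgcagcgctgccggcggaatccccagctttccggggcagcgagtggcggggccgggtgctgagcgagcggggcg
Map2k6: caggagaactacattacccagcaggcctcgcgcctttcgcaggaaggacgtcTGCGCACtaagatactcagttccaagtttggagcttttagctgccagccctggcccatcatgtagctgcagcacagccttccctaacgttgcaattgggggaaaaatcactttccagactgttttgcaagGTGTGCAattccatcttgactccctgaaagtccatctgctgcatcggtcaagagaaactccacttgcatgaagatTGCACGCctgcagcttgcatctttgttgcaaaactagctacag
Dusp13b: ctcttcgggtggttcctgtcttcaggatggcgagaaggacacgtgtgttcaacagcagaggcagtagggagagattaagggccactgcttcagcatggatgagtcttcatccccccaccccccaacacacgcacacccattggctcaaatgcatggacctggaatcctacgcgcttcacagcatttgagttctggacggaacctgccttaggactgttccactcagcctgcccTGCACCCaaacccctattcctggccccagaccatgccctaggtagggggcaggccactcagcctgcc
A match of letters is a description of the window, and binding was not measured here.

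Hybridization day has to be known before the values are read. Day 1 holds the first untreated and the first 20 h replicate, and day 2 only the second untreated replicate. The remaining 4 arrays (the third untreated replicate, both of the 8 h group and the second of the 20 h group) share day 3. The experiment file of untreated replicate 2 also records another staining protocol and gives its sample type as mouse. The log2 ratio of the 3' to the 5' actin control probe sets, which grows as RNA is shorter, ranged between 1.19 and 1.42 for day 3 and between 0.73 and 0.99 for days 1 and 2. Of all probe sets, 10.6% were higher and 18.7% lower on every day 3 array than on every array of the other days. For each cadmium array the difference from the untreated array of its own day, called the same-day difference, was therefore computed as well. One array also stood apart: on 20 h replicate 1 the summed signal of the 6 Leydig cell markers, none of them at 0, was 2469. The sum was 5871 to 8145 untreated, 7090 and 10984 at 8 h, and 7261 on the other 20 h array. Cyp17a1, Cyp11a1, Hsd3b1, Star and Lhcgr were each lowest on 20 h replicate 1. Insl3, at 1185.6 on that array, lay inside its untreated range (1126.7 to 1827.8).

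After probe sets near background were set aside, 78 member probe sets for 57 genes were tested among 20857. The 10 set aside are those of Mapk11, Mapk13, Map3k8, Map3k9, Dusp7 and Dusp8 and 1 each of several for Mapk4 (1378751_at), Mapk8 (1392418_at), Map3k20 (1380690_at) and Map4k2 (1372756_at), with signals from 0.4 to 48.6. Signal is the linear brightness of a probe set after the authors' scaling, and differences are on the scale log2(signal + 15), which understates the change of dim probe sets. Signals of different probe sets are not compared with each other.

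No member changed past the adjusted threshold of 0.05 in any comparison. The background was the same: limma called 0% of all probe sets at 8 h against untreated, 0% at 20 h against untreated, 0% at 20 h against 8 h and 0% in the F test over the 3 groups. In limma, no member had an adjusted p below 0.836 for 8 h, 0.9994 for 20 h or 0.9999 for 20 h against 8 h. At an unadjusted threshold of 0.05, 0 of 78 members were higher and 3 lower at 8 h (3.85%), where the shares of all probe sets were 1.16% higher and 4.06% lower. At 20 h, 0 members were higher and 4 lower (5.13%), with background shares of 0.767% higher and 2.34% lower. Between the times, 4 members were higher at 20 h (5.13%) and 1 was lower (1.28%), against 1.22% and 0.7% of all probe sets. No gene below is called changed, and the values that follow describe these 7 arrays.

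The typical member moved little. The median log2 difference over the 78 probe sets was -0.11 at 8 h, where 26 were higher and 52 lower than untreated, and the median of all probe sets was -0.08. At 20 h the median was -0.06, with 31 higher and 47 lower, beside -0.05 for all probe sets. Same-day medians were 0.02 on both 8 h arrays, -0.01 on 20 h replicate 1 and -0.04 on 20 h replicate 2. Untreated replicate 3, the untreated array of day 3, was the lowest of the 3 untreated arrays for 43 of 78 members (55.1%) and for 48.4% of all probe sets.

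**Figure D1:**
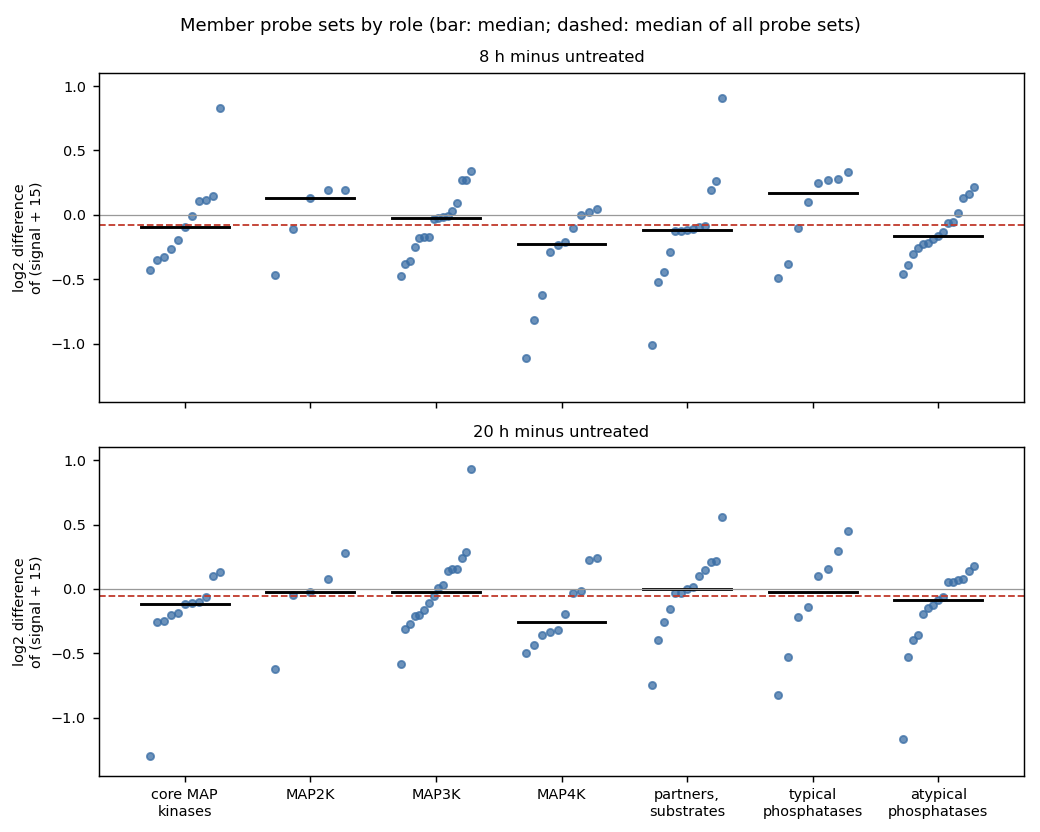
Log2 difference of signal + 15 from untreated (vertical axis) for each of the 78 member probe sets, grouped by role on the horizontal axis, at 8 h (upper panel) and 20 h (lower panel); black bars are the medians of a role and the dashed line is the median of all probe sets. The roles overlap widely, with the MAP4K median lowest at both times (-0.22 and -0.26) and the typical phosphatase median highest at 8 h (0.17).

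By role, the MAP4K enzymes had the lowest medians, -0.22 at 8 h and -0.26 at 20 h over 10 probe sets. With hybridization day as a term in the model these became 0.02 and -0.07, and untreated replicate 3 was the lowest untreated array for 9 of the 10. The MAP2K median was 0.13 at 8 h and -0.03 at 20 h over 5 probe sets, and the MAP3K median -0.03 and -0.02 over 16. For the 11 core MAP kinase probe sets the medians were -0.09 and -0.12, and for the 13 of partners and substrates -0.12 and 0.00. The 8 typical MAP kinase phosphatase probe sets had medians of 0.17 and -0.02, and the 15 atypical ones -0.16 and -0.09. At 8 h the typical phosphatases kept a positive median with day as a term (0.11) and under quantile normalization (0.33). The core MAP kinase median was also 0.11 at 8 h with day as a term, and it was 0.01 under quantile normalization.

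**Figure D2:**
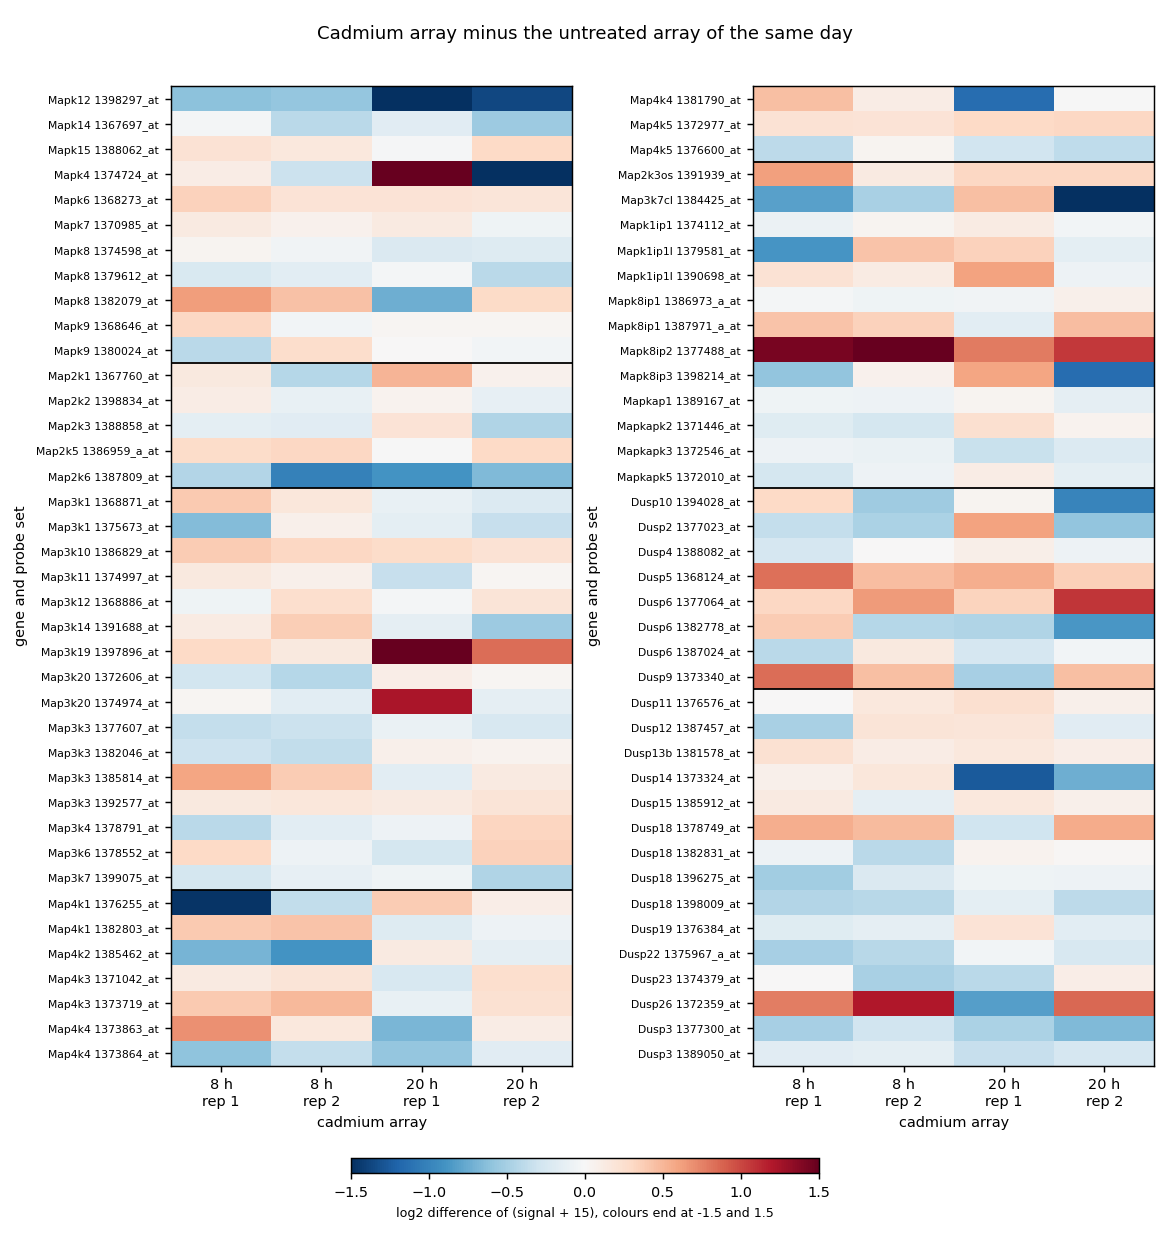
Same-day log2 difference of signal + 15 (colour, red higher and blue lower than the untreated array of the same day, colours ending at -1.5 and 1.5) for each of the 78 member probe sets, one line each, on the 4 cadmium arrays (columns); black lines separate the roles. Dusp5, Mapk8ip2 and Map3k10 are red on all 4 arrays, and Dusp3, Map2k6 and Mapk12 are blue on all 4.

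Same-day differences kept 1 direction on all 4 cadmium arrays for 24 members. They were above 0 for 11 probe sets (14.1%), against 12.2% of all probe sets, and below 0 for 13 (16.7%, of 11 genes), against 17.7%. These shares lay near the background, so a common direction is not particular to the members. Above 0 were Dusp5, Dusp11, Dusp13b, Mapk6, Mapk8ip2, Map3k10, Map3k19, Map2k3os and 1 probe set each of Dusp6, Map3k3 and Map4k5. Below 0 were Mapk12, Mapk14, Mapkapk3, Map2k6, Map3k7, Dusp22, both probe sets of Dusp3, 2 of Dusp18 and 1 each of Mapk8, Map3k3 and Map4k4. The 3 arrays of day 3 share 1 untreated array here, so they are not independent of it.

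In the ERK arm, the kinases Map2k1 and Map2k2 (MEK1 and MEK2) phosphorylate the ERK kinases. Map2k1 had signals of 125.7, 129.8 and 131.9 untreated, 148.0 and 94.2 at 8 h, and 185.5 and 138.4 at 20 h. Both 20 h arrays lay above the untreated range, while the 8 h arrays lay on either side of it. Its log2 difference was 0.28 ± 0.24 (SE) at 20 h, and the same-day differences at that time were 0.51 and 0.06. Map2k2 had signals of 1171, 1390 and 1563 untreated, 1691 and 1451 at 8 h and 1216 and 1437 at 20 h. Its 20 h arrays lay inside the untreated range, and all 4 day 3 arrays lay above the 3 others.

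Mapk7 (ERK5) and its activator Map2k5 form a separate arm that answers growth factors and stress. Mapk7 had signals of 785.3, 928.6 and 578.7 untreated, 636.4 and 607.6 at 8 h, and 859.9 and 554.5 at 20 h. The 3 high values are those of days 1 and 2 and the 4 low ones those of day 3, and the same-day differences ran from -0.06 to 0.13. Map2k5 gave 261.8, 295.3 and 249.8 untreated, 304.5 and 312.7 at 8 h, and 260.1 and 310.3 at 20 h, so that both 8 h arrays lay above the untreated range.

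Among the atypical MAP kinases, Mapk6 (ERK3), which lacks the usual paired phosphorylation site, had signals of 1614, 1736 and 1461 untreated, 1862 and 1688 at 8 h and 1864 and 1657 at 20 h. Its same-day differences were 0.35 and 0.21 at 8 h and 0.21 and 0.18 at 20 h, while its groups overlapped. Mapk15 (ERK8), a kinase linked to cilia and autophagy, ranged from 522.5 to 649.6 over all arrays, with its lowest value in untreated replicate 3. Mapk4 (ERK4), on the probe set that was tested, scattered from 2.6 to 64.1 with both ends in different groups, and its log2 difference of 0.83 ± 0.65 (SE) at 8 h rests on signals near background. Its same-day differences at 8 h were 0.11 and -0.32.

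In the p38 arm, Map2k3 and Map2k6 (MKK3 and MKK6) phosphorylate the p38 kinases, of which Mapk14 (p38 alpha) is the broadly expressed one and Mapk12 (p38 gamma) is best known from muscle. Mapk14 had signals of 258.5, 196.7 and 322.4 untreated, 314.6 and 240.7 at 8 h and 227.4 and 215.6 at 20 h. The cadmium arrays lay inside the untreated range, and the log2 difference was 0.11 ± 0.23 (SE) at 8 h and -0.19 ± 0.23 (SE) at 20 h. Its same-day differences were -0.03, -0.40, -0.17 and -0.55. Map2k3 ranged from 264.3 to 372.6, with both ends in the untreated group.

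Map2k6 had signals of 56.4, 41.5 and 68.3 untreated, 46.4 and 26.2 at 8 h, and 23.5 and 37.8 at 20 h. Both 20 h arrays lay below the untreated range, with a log2 difference of -0.63 ± 0.35 (SE), and its same-day differences ran from -1.02 to -0.44. These signals are dim: 41.5, 26.2 and 23.5 lay below the 40th percentile of their own arrays (45.9, 35.3 and 41.4). This gene carries the 3 metal response element cores printed above.

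Mapk12 had the lowest log2 difference of any member at 20 h, -1.30 ± 0.42 (SE), with an adjusted p of 0.9994 in limma. Its signals were 36.5, 36.0 and 71.8 untreated, 41.5 and 43.0 at 8 h and 3.3 and 18.6 at 20 h. Both 20 h arrays lay below the other 5, and all of these signals are dim, 3.3 being below the added constant of 15. The same-day differences were -0.62 and -0.58 at 8 h and -1.49 and -1.37 at 20 h.

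Downstream of p38, Mapkapk2 (MK2) stabilizes messages of cytokines and phosphorylates small heat shock proteins. Its signals were 372.5, 361.6 and 289.6 untreated, 253.9 and 238.3 at 8 h and 440.9 and 299.7 at 20 h. Both 8 h arrays lay below all others, the log2 difference was -0.44 ± 0.20 (SE) at 8 h, and 20 h exceeded 8 h by 0.54 ± 0.22 (SE). Day 3 arrays were below the others as well, and against the day 3 untreated array the 8 h differences were -0.18 and -0.27. Mapkapk3, a close relative of MK2, gave 239.3, 227.7 and 229.4 untreated, 216.3 and 212.2 at 8 h and 186.4 and 196.9 at 20 h, with every cadmium array below every untreated one. Mapkapk5 ranged from 221.5 to 269.3 over the 7 arrays, with overlapping groups.

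In the JNK arm, Mapk8 and Mapk9 (JNK1 and JNK2) phosphorylate Jun, and the scaffolds Mapk8ip1, Mapk8ip2 and Mapk8ip3 (JIP1 to JIP3) hold the arm's kinases together. The 3 tested probe sets of Mapk8 did not share a direction at 8 h, with log2 differences from -0.35 to 0.11. For 1379612_at the signals were 168.5, 162.0 and 137.6 untreated, 115.0 and 121.8 at 8 h and 164.6 and 100.2 at 20 h. On 1382079_at they were 214.7, 140.8 and 74.0 untreated, 122.2 and 105.2 at 8 h, and 123.8 and 93.7 at 20 h. Both were higher on days 1 and 2 than on day 3 without overlap, whereas 1374598_at spanned 193.7 to 252.3 with no such split.

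Mapk9 followed the same split by day on both probe sets. On 1368646_at, untreated replicates 1 and 2 and 20 h replicate 1 read 81.5, 78.9 and 83.8, and the 4 day 3 arrays read 36.6 to 50.6. The signals of 1380024_at were 99.1 to 107.3 on days 1 and 2 and 53.1 to 93.2 on day 3. Day 3 holds both 8 h arrays and only 1 of 3 untreated ones, and the 8 h log2 differences of Mapk9 were -0.43 on the first and -0.33 on the second. With day as a term they were 0.14 and -0.06. The same-day differences at 8 h were 0.31 and -0.04 on the first and -0.40 and 0.26 on the second.

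**Figure D3:**
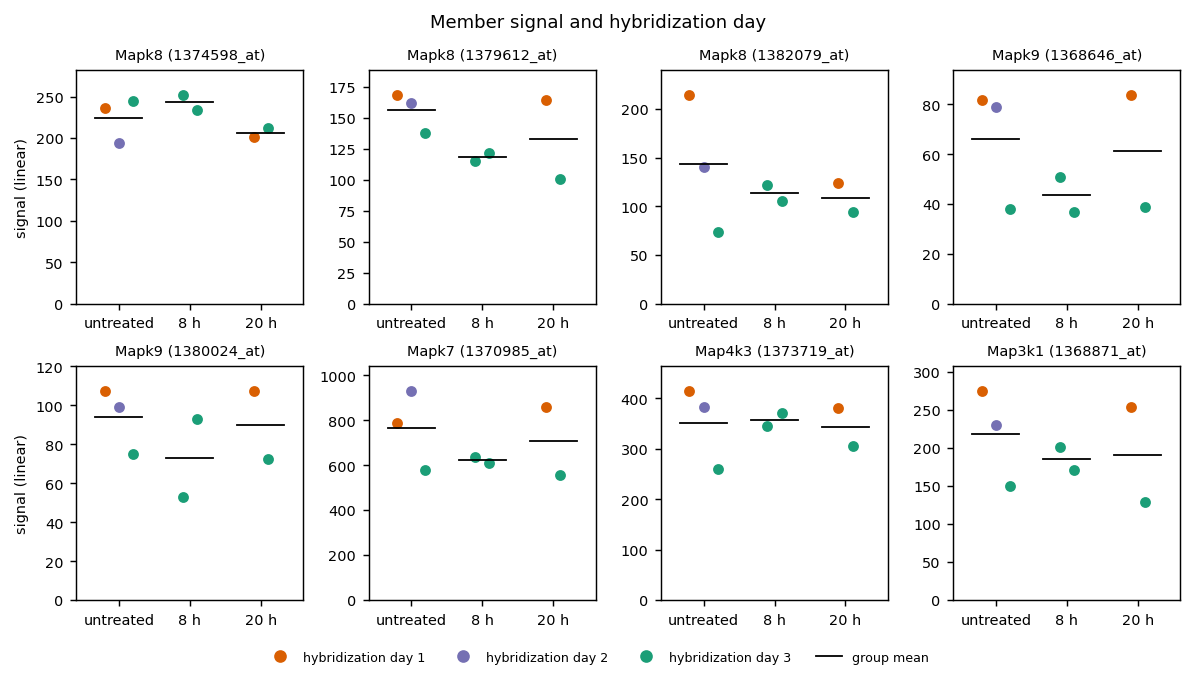
Signal (vertical axis, linear, from 0) of 8 member probe sets on the 7 arrays, by group on the horizontal axis, with points coloured by hybridization day and black bars at group means. In Mapk7, Mapk9, Map4k3, Map3k1 and 2 of the 3 Mapk8 probe sets every day 3 point lies below every point of days 1 and 2, while Mapk8 on 1374598_at shows no such order.

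Over all members, 19 of 78 probe sets (24.4%, of 14 genes) were lower on all day 3 arrays than on all others, and 4 (5.13%) were higher, against background shares of 18.7% and 10.6%. Besides Mapk7, Mapk8 and Mapk9 the lower set held Map3k1 (2 probe sets), Map3k6, Map4k2, Map4k3 (2), Mapk1ip1l (2), Mapk8ip1, Mapkap1, Mapkapk2, Dusp10, Dusp18 and Dusp19. The higher set was Map2k2, Mapk1ip1, Dusp4 and 1 probe set of Map3k3.

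Of the scaffolds, Mapk8ip2 had the highest log2 difference of any member at 8 h, 0.91 ± 0.43 (SE), on dim signals of 17.9, 44.2 and 8.7 untreated, 48.7 and 56.2 at 8 h and 41.5 and 34.5 at 20 h. Both 8 h arrays lay above the untreated range and the 20 h arrays inside it, and the same-day differences were 1.43 and 1.59 at 8 h and 0.78 and 1.06 at 20 h. Mapk8ip1 differed by at most 0.12 in size from untreated at either time on its 2 probe sets, and Mapk8ip3 scattered from 14.5 to 70.3 with both ends at 20 h. Mapk1ip1l had a log2 difference of -1.01 ± 0.56 (SE) at 8 h on 1379581_at, from 113.8, 135.2 and 47.0 untreated and 18.6 and 68.2 at 8 h, and of -0.13 ± 0.35 (SE) on its other probe set. With day as a term the first became -0.105, and its same-day differences at 8 h, -0.88 and 0.42, had opposite signs. Map3k7cl was dim, with 35.5, 52.5 and 51.6 untreated, 22.9 and 32.4 at 8 h and 53.8 and 4.2 at 20 h, so that both 8 h arrays lay below the untreated range and the 20 h arrays on either side of it.

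Among the MAP3K enzymes, which receive the stress signal, Map3k10 (mixed-lineage kinase 2, an activator of JNK) had signals of 52.8, 50.8 and 46.6 untreated, 65.1 and 61.4 at 8 h, and 67.3 and 56.5 at 20 h. All 4 cadmium arrays lay above all 3 untreated ones. Its log2 difference was 0.27 ± 0.26 (SE) at 8 h and 0.24 ± 0.26 (SE) at 20 h. Map3k7 (TAK1), which relays cytokine and TGF-beta signals to p38, JNK and NF-kB, gave 295.2, 311.8 and 311.5 untreated, 256.6 and 284.5 at 8 h and 280.5 and 224.6 at 20 h. Here every cadmium array was below every untreated one, with log2 differences of -0.17 ± 0.17 (SE) and -0.27 ± 0.17 (SE).

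Map3k1 (MEKK1), an activator of JNK, gave 274.7, 230.5 and 149.9 untreated, 200.7 and 170.7 at 8 h and 253.8 and 128.3 at 20 h on 1368871_at. Its order followed the day, and its second probe set also lay lower on day 3. Map3k4, which is switched on by Gadd45 proteins, read 239.6, 198.8 and 195.0 untreated, 144.3 and 172.9 at 8 h and 226.4 and 247.2 at 20 h. Its 8 h arrays lay below all others, and 20 h exceeded 8 h by 0.54 ± 0.20 (SE). Map3k14 (NIK), the kinase of the alternative NF-kB route, read 76.0, 135.0 and 74.2 untreated, 82.1 and 99.9 at 8 h and 68.0 and 46.2 at 20 h, below the untreated range on both 20 h arrays.

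Map3k19 had the highest difference of any member at 20 h, 0.93 ± 0.43 (SE), from signals of 10.9, 61.4 and 35.5 untreated, 46.9 and 40.9 at 8 h and 71.2 and 75.5 at 20 h. The untreated arrays alone spanned most of that range. Its promoter window holds 1 of the 2 AP-1 sites found among members. The 4 tested probe sets of Map3k3 (MEKK3) disagreed in sign at both times; on 1377607_at every cadmium array (137.0 to 150.4) lay below every untreated one (160.3 to 180.5), and on the 3 others the groups overlapped. Map3k20 (ZAK), the sensor of stalled ribosomes, read 81.0 to 126.1 over all arrays on 1372606_at, with the groups overlapping.

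At the top of the cascade, Map4k4 (HGK), which feeds JNK and shapes cell adhesion, had signals of 278.6, 294.1 and 244.8 untreated, 156.5 and 188.1 at 8 h and 181.2 and 215.4 at 20 h on 1373864_at. All 4 cadmium arrays lay below all 3 untreated ones. The untreated mean was 272.5 ± 25.2 (SD, n = 3), the 8 h mean 172.3 ± 22.3 (SD, n = 2) and the 20 h mean 198.3 ± 24.2 (SD, n = 2). The log2 difference from untreated was -0.62 ± 0.19 (SE) after 8 h and -0.43 ± 0.19 (SE) after 20 h. Same-day differences were -0.60, -0.36, -0.58 and -0.17. The 2 other probe sets of Map4k4 also had negative log2 differences at both times, from -0.50 to -0.10. Both groups overlapped untreated on 1373863_at, and on 1381790_at the 8 h arrays overlapped untreated while the 20 h arrays (23.2 and 29.8) lay below all 3 untreated values (69.3, 37.7 and 29.9). Same-day differences at 8 h were above 0 on both of these probe sets, at 0.68 and 0.15 on the first and 0.45 and 0.11 on the second.

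Map4k2, which passes TNF signals to JNK, had the lowest log2 difference of any member at 8 h, -1.11 ± 0.29 (SE), with an adjusted p of 0.836 in limma. The signals on 1385462_at were 97.1, 141.6 and 80.7 untreated, 44.1 and 36.3 at 8 h and 108.3 and 72.3 at 20 h. Both 8 h arrays lay below the other 5, 20 h exceeded 8 h by 0.91 ± 0.32 (SE), and the 8 h same-day differences were -0.70 and -0.90. Its second probe set was near background on all arrays.

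Map4k1 (HPK1), a kinase mainly of blood cells, gave 56.6, 61.7 and 67.0 untreated, 14.7 and 48.6 at 8 h and 78.2 and 72.7 at 20 h on 1376255_at. The 8 h arrays lay below and the 20 h arrays above the untreated range, and 20 h exceeded 8 h by 1.06 ± 0.38 (SE). The other probe set of Map4k1 went the opposite way, with -0.35 ± 0.34 (SE) between the times. Macrophage and leukocyte markers summed to 3927 to 4429 untreated and to 4548 to 4717 on the cadmium arrays, over 10 genes of which 6 were above background, and their part in the Map4k1 values was not tested. None of the 10 was at 0. Most of that sum is Aif1, at 3216 to 3766 untreated and 3707 to 3975 on the cadmium arrays, which overlapped. Csf1r was lower on all 4 cadmium arrays (70.8 to 110.0) than untreated (122.9 to 128.9). Cd163 went the other way, at 77.2 to 137.3 on the cadmium arrays against 37.4 to 52.3 untreated. Map4k3 and Map4k5 had log2 differences between -0.36 and 0.23.

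Typical MAP kinase phosphatases are the feedback brakes of the cascade. Dusp5, a nuclear phosphatase of ERK, had signals of 113.0, 120.9 and 59.9 untreated, 117.7 and 88.4 at 8 h and 171.3 and 81.0 at 20 h. The groups overlapped, untreated replicate 3 was the lowest array and 20 h replicate 1 the highest. Its log2 difference was 0.10 ± 0.35 (SE) at 8 h and 0.29 ± 0.35 (SE) at 20 h, and its same-day differences were 0.83, 0.47, 0.54 and 0.36. The tandem serum response elements printed above belong to this gene.

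Dusp6, the cytoplasmic phosphatase of ERK, gave a different answer on each of its 3 probe sets. At 20 h the log2 differences were 0.45 ± 0.37 (SE) on 1377064_at, -0.82 ± 0.43 (SE) on 1382778_at and -0.14 ± 0.21 (SE) on 1387024_at. On 1387024_at the signals were 188.4, 189.8 and 194.9 untreated, 143.4 and 216.8 at 8 h, and 155.7 and 189.3 at 20 h, so its 8 h arrays lay on both sides of the untreated range. No direction can be given for the gene.

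Dusp4, a nuclear phosphatase of ERK and JNK, read 135.9 to 147.0 on days 1 and 2 and 171.6 to 208.2 on day 3, an order that followed the day. Dusp2 gave 20.4, 23.1 and 60.7 untreated and 35.1 to 44.0 on the cadmium arrays, inside that range. Dusp10, which acts on p38 and JNK, read 66.9 to 72.0 on days 1 and 2 and 16.8 to 62.7 on day 3. Dusp9, a phosphatase of ERK, overlapped between groups with signals from 37.9 to 89.9.

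Atypical dual-specificity phosphatases lack the kinase-docking domain. Dusp3 (VHR), which acts on ERK and JNK, gave 178.8, 160.1 and 170.0 untreated, 115.9 and 136.9 at 8 h and 124.8 and 101.7 at 20 h on 1377300_at. Every cadmium array lay below every untreated one. The untreated arrays averaged 169.6 ± 9.36 (SD, n = 3), those of 8 h 126.4 ± 14.9 (SD, n = 2) and those of 20 h 113.2 ± 16.3 (SD, n = 2), with log2 differences of -0.39 ± 0.20 (SE) and -0.53 ± 0.20 (SE). Same-day differences were -0.50, -0.28, -0.47 and -0.67. On its second probe set, 1389050_at, the log2 differences were -0.06 ± 0.18 (SE) and -0.19 ± 0.18 (SE), the 4 same-day differences ran from -0.35 to -0.15, and the groups overlapped.

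Dusp13b, the product of a locus known for testis and muscle phosphatases, had signals of 3062, 2939 and 2986 untreated, 3489 and 3224 at 8 h and 3407 and 3209 at 20 h. All 4 cadmium arrays lay above the untreated ones by a small margin, with log2 differences of 0.16 ± 0.12 (SE) and 0.14 ± 0.12 (SE). Dusp15 ranged from 2497 to 3290 with overlapping groups. Dusp14, a phosphatase of TAB1 and TAK1, was dim, with 52.5, 56.8 and 22.9 untreated, 25.0 and 27.7 at 8 h and 13.1 and 7.9 at 20 h. Its 20 h arrays lay below the other 5, and the log2 difference was -1.16 ± 0.42 (SE). Dusp22, which acts on JNK signalling, read 1135, 1198 and 1595 untreated and 1104 to 1348 on the cadmium arrays, and its 4 same-day differences ran from -0.50 to -0.04.

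Members with all 4 cadmium arrays outside the untreated range were 2 higher (2.56%; Map3k10 and Dusp13b), against 1.82% of all probe sets, and 5 lower (6.41%; Map4k4, Dusp3, Mapkapk3, Map3k3 and Map3k7), against 4.9%. At 8 h alone 4 were higher (5.13%, background 7.59%) and 14 lower (17.9%, background 15.4%). For 20 h the counts were 5 higher (6.41%, background 4.65%) and 11 lower (14.1%, background 10.7%). All of these shares stood near the background. Map3k10, Map4k4 and Dusp3 stayed outside the range under quantile normalization and under scaling to one 75th percentile, Dusp13b overlapped under the first of these, and Mapkapk3, Map3k3 and Map3k7 overlapped under both. These 7 were singled out after their values were seen.

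**Figure D4:**
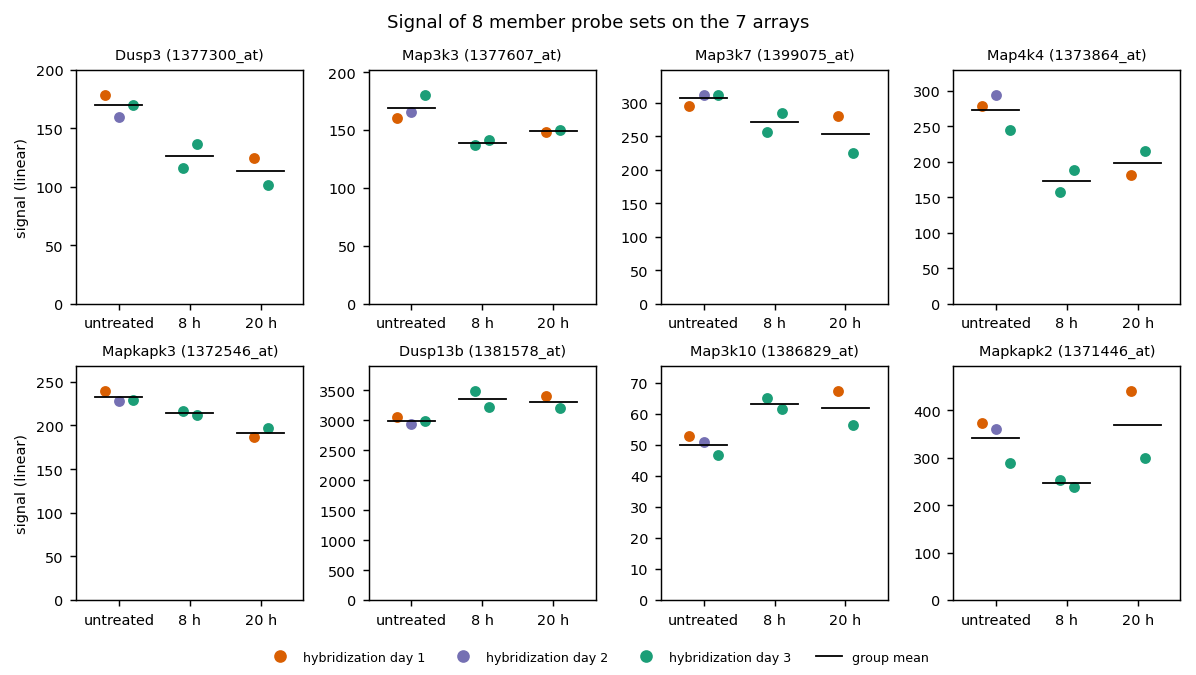
Signal (vertical axis, linear, from 0) of 8 member probe sets on the 7 arrays, by group on the horizontal axis, with points coloured by hybridization day and black bars at group means. The cadmium points of Dusp3, Map4k4, Mapkapk3, Map3k7 and Map3k3 lie below every untreated point and those of Dusp13b and Map3k10 above, while in Mapkapk2 the 8 h points alone lie below the rest.

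Markers of vascular cells had lower means in both cadmium groups than in the untreated one. Of 10 endothelial genes 9 were measured and 8 tested; all 8 had negative log2 differences at both times, 0 passed the adjusted threshold, and the medians were -0.65 at 8 h and -0.58 at 20 h. Their same-day medians were -0.79 and -0.32 at 8 h, -0.86 on 20 h replicate 1 and 0.02 on 20 h replicate 2. On that last array Cldn5 and Vwf, at 252.9 and 86.9, lay above every untreated value. No measured endothelial marker was at 0, and their summed signal was 827.4 to 915.7 untreated, 453.6 and 664.3 at 8 h and 504.3 and 756.6 at 20 h, and the part of endothelial RNA in the member values was not tested. Sums for other cell types overlapped between groups: Sertoli 10607 to 13560, peritubular myoid 1375 to 1755, spermatocyte 6473 to 8434, spermatogonia 404.0 to 1018, over all arrays. Measured were 6 of 8 Sertoli, 3 of 6 spermatocyte and 2 of 5 spermatogonia markers, and the brightest genes dominate such sums. Single markers could still separate. Kit, of the spermatogonia, was at most 43.5 on the cadmium arrays and at least 47.4 untreated, while Gfra1 overlapped. Smc1b, of the spermatocytes, was at least 1945.6 on the cadmium arrays and at most 1827.2 untreated, while Sycp1 and Sycp3 overlapped. The part of these cells in the member values was not tested. Spermatid markers, which mark the tissue as testis on every array, summed to 85179 to 93311 on days 1 and 2 and to 123215 to 130202 on day 3.

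**Figure D5:**
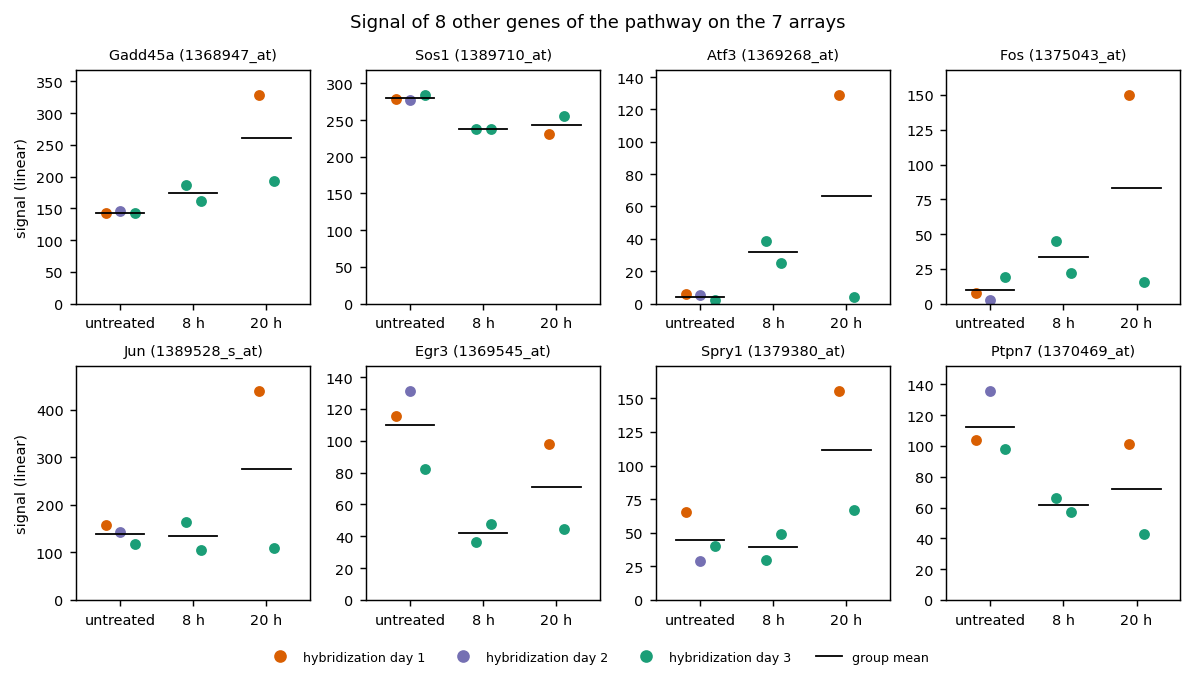
Signal (vertical axis, linear, from 0) of 8 other genes of the pathway on the 7 arrays, by group on the horizontal axis, with points coloured by hybridization day and black bars at group means. The point of 20 h replicate 1 stands far above all others in Atf3, Fos, Jun, Spry1 and Gadd45a, the Gadd45a cadmium points all lie above the untreated ones, and the Sos1 cadmium points all lie below.

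Other genes of the pathway were read from lists of upstream factors, of substrates and targets, and of feedback inhibitors. None passed the adjusted threshold: 0 of 19 tested upstream factors and adaptors, 0 of 24 substrates and targets and 0 of 6 feedback genes, in any comparison. The upstream median was -0.07 at 8 h and -0.10 at 20 h. Gadd45a, a damage sensor that binds Map3k4, read 142.2, 145.2 and 142.6 untreated, 187.2 and 161.0 at 8 h and 329.0 and 193.0 at 20 h, above the untreated range on all 4 arrays, with a log2 difference of 0.76 at 20 h. Sos1, the exchange factor that loads Ras, read 277.6 to 284.5 untreated and 231.6 to 254.9 on the cadmium arrays, below the range on all 4. Tab1, the partner that activates TAK1, read 185.5 to 196.9 untreated, 191.9 and 164.0 at 8 h, and 146.4 and 136.3 at 20 h.

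Several transcripts known as outputs of the cascade stood highest on 1 array, 20 h replicate 1. Fos, a component of the AP-1 factor, read 7.5, 2.5 and 19.3 untreated, 45.3 and 22.3 at 8 h, and 150.2 and 15.3 at 20 h. Jun, its partner and the substrate of JNK, read 439.7 on 20 h replicate 1 and 105.6 to 165.1 on the other 6 arrays. The stress factor Atf3 read 1.9 to 6.0 untreated, 38.5 and 24.8 at 8 h, and 129.1 and 4.0 at 20 h. Ier3, of the same list, read 55.9 to 87.4 untreated, 85.0 and 114.5 at 8 h, and 465.8 and 156.8 at 20 h. It lay above the untreated range on both 20 h arrays. Over the 29 measured substrates and targets the summed signal was 8438 on 20 h replicate 1 and 4750 to 5480 elsewhere. The 9 measured feedback genes summed to 931.6 on that array and to 554.0 to 598.7 elsewhere, with Spry1, an inhibitor of the ERK arm, at 155.4 against 29.3 to 67.2. In the same list Etv5 and Etv4, transcription factors downstream of ERK, were lowest on that array, Etv5 at 52.6 against 86.1 to 155.2 and the dim Etv4 at 2.5 against 4.8 to 25.4.

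Among the members, 20 h replicate 1 was the highest of the 7 arrays for 18 of 78 members (23.1%) and for 14.9% of all probe sets, among them Map2k1, Mapkapk2, Dusp5, Dusp15 and Dusp19. Untreated replicate 2 was the highest for nearly as many, 17 members (21.8%, and 20.6% of all probe sets). For 10 members (12.8%, and 15.6% of all probe sets) 20 h replicate 1 was the lowest array. On the other 20 h array Fos and Atf3 lay inside the untreated range, and Jun, at 110.0, lay below it (117.5 to 157.2). Ier3 and Spry1, at 156.8 and 67.2 on that array, lay above theirs (55.9 to 87.4 and 29.3 to 65.7). The 20 h group thus holds 2 arrays that differ in these outputs. The fit pools the spread over all groups, so the standard errors of every comparison carry that difference, those at 8 h included. Among the 24 tested substrates and targets, both 8 h arrays lay below the untreated range for Egr3, Elk4 and Hspb1. They lay above it for Fos, Atf3 and Rps6ka3. Fos (45.3 and 22.3) and Atf3 (38.5 and 24.8) were dim at 8 h. The lower 8 h value of Rps6ka3, 123.1, was just above its highest untreated value, 122.5. Among the 6 tested feedback genes, both 8 h arrays lay below the untreated range for Ptpn7 and above it for Errfi1. Of all probe sets, 15.4% lay below and 7.59% above at 8 h. Egr3, an early growth response factor, read 82.4 to 131.2 untreated and 36.6 and 47.5 at 8 h. Ptpn7, a tyrosine phosphatase of ERK and p38, read 97.7 to 135.6 untreated and 66.3 and 57.3 at 8 h.

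Where a gene had several tested probe sets, these often disagreed. Of 14 such genes, 6 had log2 differences of both signs in the 8 h comparison, 6 in the 20 h comparison and 9 in that of 20 h with 8 h. Dusp6, Map3k3 and Map4k1 disagreed in all 3 comparisons, while Dusp3, Mapk8ip1 and Mapk9 disagreed in none. With 1 probe set per gene, the median log2 difference over 57 genes was -0.09 at 8 h and -0.04 at 20 h.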

How the data were processed

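Total testis RNA was hybridized to 7 arrays. The deposited values are MAS 5.0 signal intensity on a linear scale, per the labels and the series text, which also names GeneSpring 7.2; the deposited intensity values have a 2% trimmed mean of 250.1 on every array, so each was scaled as a whole. Hybridization days were read from the deposited experiment files. Depth does not apply to arrays, and their number limits the precision. Probe sets were named from the platform annotation (20826 name 1 gene, 436 several, 9780 none); all 88 members matched RefSeq by gene ID. Values became log2(signal + 15), and a probe set was kept when 2 or more arrays read it above their own 40th percentile. limma 3.58.1 (R 4.3.3; lmFit, eBayes with an intensity trend) was fitted to all 7 arrays as 3 groups, with Benjamini-Hochberg adjustment over 20857 probe sets and a threshold of 0.05. The code was tested on simulated data. Named members are the 5 highest and 5 lowest log2 differences of each comparison, a list of core cascade genes, and those said to be singled out afterwards. Members and lists were chosen with earlier results of these data known. Alternatives were other constants, filters, scalings, day or replicate number as a term, and leaving out arrays.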

Additional observations from a re-analysis of the deposited data

How the results depend on the processing

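In every alternative that was run, 0 members passed the adjusted threshold in limma. The median member difference at 8 h, -0.11, was 0.004 under quantile normalization, -0.015 under scaling to one 75th percentile and 0.001 with hybridization day as a block; these settings also moved the median of all probe sets from -0.08 to 0.008, 0.018 and -0.02. Fitted on the day 3 arrays alone (1 untreated, 2 of 8 h and 1 of 20 h, so the 8 h pair alone gives the spread, with 1 residual degree of freedom), limma called 8 probe sets at 8 h, 2 at 20 h and 2 in the F test, none of them members; with all arrays it called 0. Leaving out 1 array in turn gave 0 to 1 calls at 8 h, 0 to 8 at 20 h, 0 to 1 for 20 h against 8 h and 0 to 1 in the F test; the calls came without 20 h replicate 2 (8 at 20 h, 1 for 20 h against 8 h) or without 8 h replicate 2 (1 each at 8 h, for 20 h against 8 h and in the F test), where the fit takes the spread of the single array left from the other groups; none was a member. With the replicate number as a block the member median became -0.152 for 8 h, -0.116 for 20 h and 0.003 for 20 h against 8 h. The difference between replicates 1 and 2 was correlated between groups over all probe sets kept. The correlation was -0.001 for untreated with 8 h, 0.094 for untreated with 20 h and 0.14 for 8 h with 20 h. These values give no sign that the numbers pair the samples. Of 2424 values of 49 named probe sets under the alternatives, 170 had the opposite sign to the value reported and 0 were called. Other filters, a fit without the intensity trend and leaving out an array outside a comparison do not alter its log2 difference. Those values could not change sign, so the count understates how often signs turned where they could. Groups of 3, 2 and 2 arrays and signals near background limit what differences could be seen.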
